A study of Mus musculus with 8 samples.

Results

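Wild-type colon tumors were compared with wild-type normal colon, on 4 of the 8 arrays of the series. The groups were 2 arrays of tumor tissue and 2 arrays of normal colon, all of total RNA from wild-type C57BL/6 mice on Illumina bead arrays (MouseRef-8 v2). The other 4 arrays held tumors and normal colon of C57BL/6 mice labelled caspase-12 deficient, and entered the fit to share its estimate of the spread. Of 25697 probes 13327 were kept, being those that 2 or more of the 8 arrays detected (p under 0.01), and they stood for 9341 named genes. Whether replicates of a group came from separate animals is not stated in the labels, and every p-value therefore rests on a spread that may be technical. The origin of the tumors, the age of the mice and the site along the colon are likewise not given in the sources. Levels below are log2 normalised intensities, in the order replicate 1 and replicate 2, and they can be compared between arrays but not between genes.

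The lining of the colon is a single layer of absorptive colonocytes, mucus-secreting goblet cells and hormone-secreting enteroendocrine cells, renewed from stem cells at the crypt base. Wnt signalling keeps that base proliferating, and intestinal tumors commonly switch on its target and feedback genes. Below the epithelium lie lymphoid follicles rich in B cells, and layers of smooth muscle. Towards the anus the colonic lining gives way to the stratified squamous epithelium of the anal canal, surrounded by skeletal muscle of the sphincter.

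The 4 arrays had mean intensities of 1134 and 1139 in tumors and 1132 and 1165 in normal colon, with 49.1% and 45.8% of probes above background in tumors and 43.9% and 45.0% in normal colon. The Casp12 probe was above background on none of them, at 5.73 and 5.88 in tumors and 5.84 and 5.83 in normal colon. On the arrays labelled deficient it read 6.97 and 5.96 in tumors and 6.50 and 7.21 in normal colon, above background on 1 tumor and 1 normal array. The probe thus does not bear out the genotype labels, and whether it lies in the deleted part is not given in the sources, so those arrays are called by their label only. Defining markers of colon epithelium were strong throughout: of 15 listed genes 14 were tested, and their mean level was 13.27 and 13.24 in tumors and 13.49 and 13.60 in normal colon. The tumor arrays did not resemble each other as closely as the normal ones. Across probes tumor replicate 2 correlated with the normal arrays at r = 0.972 and 0.973, whereas tumor replicate 1 did so at 0.927 and 0.922. The tumor arrays correlated with each other at 0.945, and the normal arrays at 0.976. Probes are not independent replicates, and these values are a description.

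Normal replicate 1 stood apart from normal replicate 2 in a set of transcripts. Why it did was not tested, and it enters every normal mean and difference below. In it 36 of 9341 genes (0.385%) were at least 4-fold above normal replicate 2, and of these 36 genes 24 (66.7%) were also at least 4-fold higher in both tumors than in both normal arrays labelled deficient, a pattern held by 2.57% of all genes. Those 24 were 10% of the 240 genes with that pattern. A gene that normal replicate 1 alone of the wild-type arrays detected was tested only if an array labelled deficient also detected it. The filter therefore sets the 66.7% in part, and the 2.57% is not a like background. In 21 of the 36 (58.3%), normal replicate 1 also lay above both wild-type tumors. Wnt target and feedback genes were among them. Of the list's 26 genes 17 were tested, and normal replicate 1 was the highest of the 4 wild-type arrays for 11 of them. It was at least 2-fold above normal replicate 2 for 10 (1.86% of all genes), with a median of 1.28 log2 units between the normal arrays (0.02 over all genes). Counts of which array was highest, here and below, have no share over all genes beside them and are a description. Notum, a secreted Wnt-inactivating enzyme, read 6.50 and 5.75 in tumors and 8.98 and 5.20 in normal colon. Sp5, a transcription factor induced by Wnt, read 6.07 and 5.64 in tumors and 9.61 and 5.99 in normal colon. Lgr5, the receptor that marks crypt-base stem cells, read 6.07 and 5.08 in tumors and 7.30 and 5.52 in normal colon. In these genes the tumors and normal replicate 2 lay close together and normal replicate 1 stood above them.

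Axin2 and Wif1 were likewise highest in normal replicate 1, and other Wnt genes did not all share this. Axin2, the feedback inhibitor of beta-catenin, read 8.81 and 8.31 in tumors and 9.85 and 8.57 in normal colon. Wif1, a secreted Wnt inhibitor, read 8.85 and 7.36 in tumors and 10.19 and 7.76 in normal colon. Wnt10a, a Wnt ligand, read 9.28 and 5.71 in tumors and 8.28 and 5.21 in normal colon, so that here tumor replicate 1 was high too. Apcdd1 was alike, at 8.43 and 5.49 in tumors and 8.45 and 5.66 in normal colon. Tnfrsf19 read 7.90 and 7.22 in tumors and 7.21 and 5.95 in normal colon, so that both tumors lay above both normal arrays. Of the 17 tested genes, 2 lay above and 3 below both normal arrays (22.7% and 23% of all genes). The list median of tumor minus normal was −0.36 with all arrays and 0.12 without normal replicate 1, and no member of the list passed the test. Outside this list Mmp7, a metalloprotease of Paneth cells and intestinal tumors, read 6.26 and 5.43 in tumors and 9.27 and 5.21 in normal colon. The lectin Itln1 read 6.81 and 6.80 in tumors and 10.08 and 6.75 in normal colon. Pnliprp1, a lipase-related protein of the exocrine pancreas, read 7.54 and 7.95 in tumors and 11.44 and 6.49 in normal colon. Defa20, an antimicrobial alpha-defensin, read 5.20 and 7.45 in tumors and 11.84 and 7.88 in normal colon, and all 4 alpha-defensins tested were highest in normal replicate 1, with a median of tumor minus normal of −1.95 that was −0.30 without it. Those probes can share sequence with near-identical copies.

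**Figure D1:**
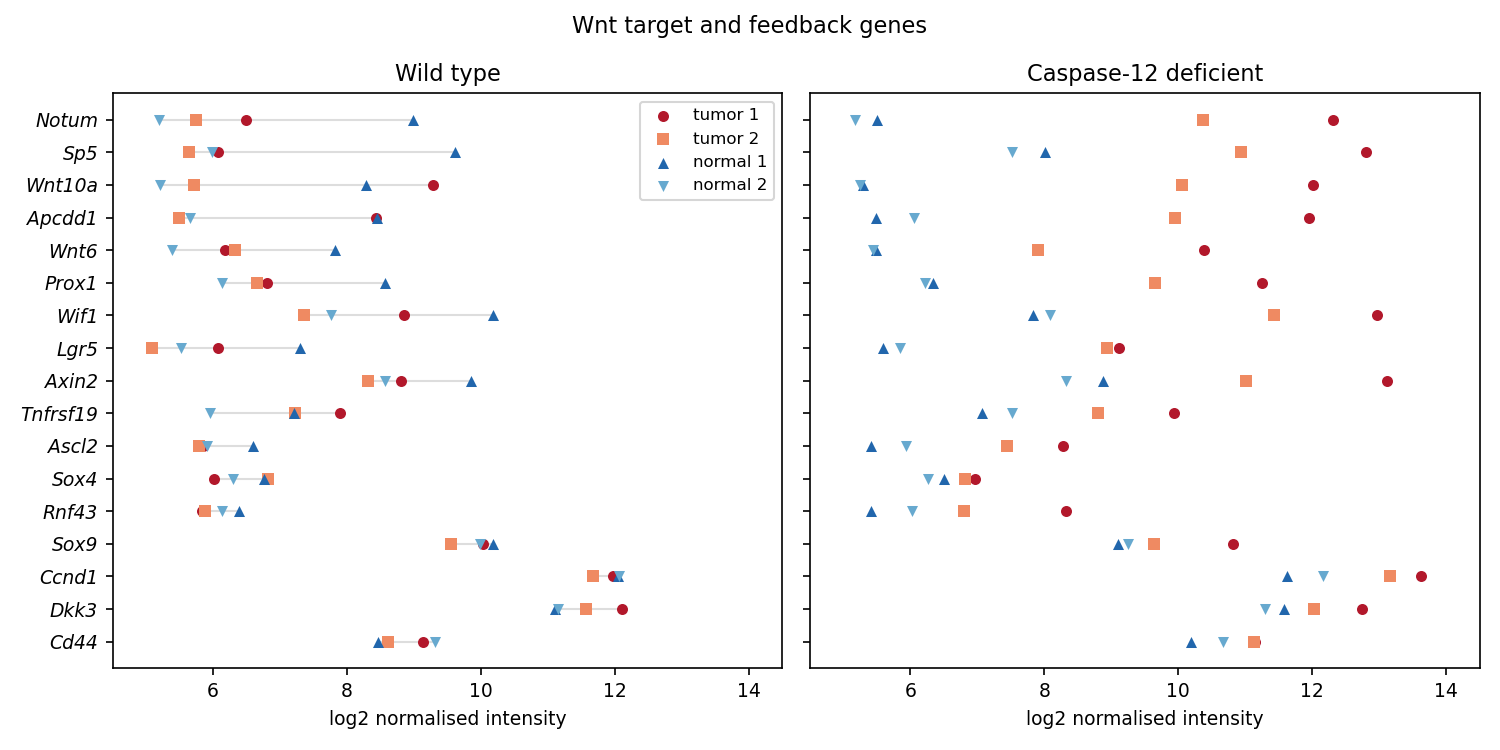
Log2 normalised intensity of the 17 tested Wnt target and feedback genes (rows) on the 4 wild-type arrays (left panel) and the 4 arrays labelled caspase-12 deficient (right panel); circles and squares are tumors, triangles are normal colon, and each point is 1 array. In wild-type mice normal replicate 1 is the highest array for 11 genes, while on the arrays labelled deficient the highest points are tumors.

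Tumor and normal colon differed at a Benjamini-Hochberg adjusted p under 0.05 in limma's test for 0 of 13327 probes (0%). The lowest adjusted p was 0.0927, and 1154 probes had an unadjusted p under 0.05, of which 655 (4.91%) were higher and 499 (3.74%) lower in tumors. The share of these that were higher depended on the scaling, at 56.8% here, 34.0% with median scaling and 76.4% with the deposited log2 values. Each tumor array was therefore also set against the mean of the 2 normal arrays. Tumor replicate 1 was at least 2-fold away for 1367 of 9341 genes (14.6%), with 662 (7.09%) above and 705 (7.55%) below. Tumor replicate 2 was at least 2-fold away for 380 genes (4.07%), with 240 (2.57%) above and 140 (1.5%) below. For scale, normal replicate 1 was at least 2-fold from normal replicate 2 for 406 genes (4.35%), with 174 (1.86%) above and 232 (2.48%) below. Both tumor arrays lay above both normal arrays for 2122 genes (22.7%) and below both for 2153 (23%). They did so by at least 2-fold for 75 genes (0.803%) and 36 genes (0.385%). Genes named below as higher or lower are descriptions of these 4 arrays unless a test is given.

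**Figure D2:**
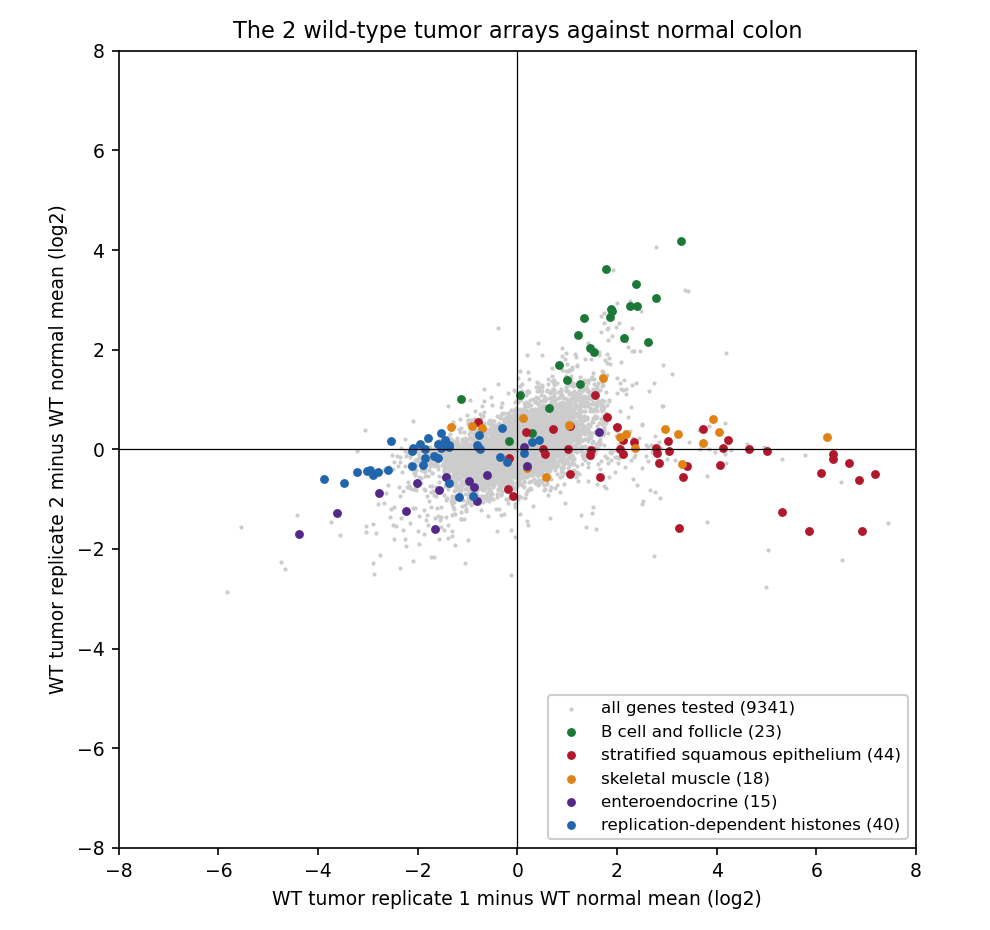
Each point is a gene, placed by the log2 difference of wild-type tumor replicate 1 (horizontal) and of wild-type tumor replicate 2 (vertical) from the mean of the 2 wild-type normal arrays. B cell and follicle genes (green) lie to the upper right, above normal on both tumors, whereas squamous epithelium genes (red) spread to the right along the horizontal axis, above normal on tumor replicate 1 alone for 36 against 1 at 2-fold or more.

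B cell and lymphoid follicle genes were higher on both tumors. The list had 34 genes, of which 30 had a probe and 23 were tested. Of the 23, 20 lay above both normal arrays on both tumors (background 22.7%), 0 lay below, and 16 had an unadjusted p under 0.05 in the higher direction (background 5.06%), but none passed after adjustment. Their median difference from the normal mean was 1.53 in tumor replicate 1 and 2.24 in tumor replicate 2, against 0.02 and −0.02 over all genes. The normal arrays also differed, by a median of −0.98 for replicate 1 minus replicate 2, and without normal replicate 1 the tumor median was 1.46. Since 4 of the 23 genes were above background on the wild-type tumors alone, and a filter keeps such genes because they are high there, the median over all 30 genes with a probe is given as well, at 1.51. Over the members detected on every array it was 0.52. These are bulk samples, in which more cells of a type and more RNA per cell cannot be told apart.

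Receptors of the B cell surface were among the larger differences. Fcmr, the Fc receptor for IgM, read 10.85 and 11.74 in tumors and 6.91 and 8.21 in normal colon, a difference of 3.73 (SE 0.46, adjusted p = 0.100). Cxcr5, which guides B cells into follicles, read 8.36 and 8.83 in tumors and 5.60 and 6.32 in normal colon, where it was not above background, making it at least 3.37-fold higher (adjusted p = 0.100). Tnfrsf13c, the receptor for the B cell survival factor BAFF, read 7.95 and 8.89 in tumors and 4.86 and 6.28 in normal colon (at least 2.98-fold higher, adjusted p = 0.156). For each of the 3 receptors both tumors lay above both normal arrays, tumor replicate 2 was the highest and normal replicate 1 the lowest. The signalling chains Cd79a and Cd79b of the B cell receptor were higher by 1.99 and 2.26 (adjusted p = 0.368 and 0.186). The B cell kinase Blk read 8.53 and 8.77 in tumors and 4.95 and 6.53 in normal colon (at least 3.50-fold higher, adjusted p = 0.152), and Prkcb, a protein kinase C of B cell receptor signalling, read 10.94 and 10.48 in tumors and 7.98 and 8.66 in normal colon.

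The chemokines that organise follicles were higher alongside these receptors. Cxcl13, the ligand of Cxcr5, read 10.81 and 10.92 in tumors and 7.90 and 9.46 in normal colon. Ccl19, which draws T cells and dendritic cells into lymphoid tissue, read 7.68 and 9.52 in tumors and 5.40 and 6.38 in normal colon (at least 3.37-fold higher, adjusted p = 0.300). Glycam1, a mucin-like ligand on the high endothelial venules through which lymphocytes enter lymphoid tissue, read 6.89 and 8.68 in tumors and 5.23 and 4.94 in normal colon (at least 1.92-fold higher, adjusted p = 0.568). For these genes too, the groups did not overlap. Madcam1, the addressin of mucosal venules, did not separate the groups, with 6.31 and 7.07 in tumors and 6.85 and 6.23 in normal colon. Cd52, a glycoprotein of lymphocytes, was the member farthest in the other direction on tumor replicate 1, with 9.97 and 12.11 in tumors and 10.39 and 11.82 in normal colon.

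Genes of plasma cells, the antibody-secreting end of the B cell lineage, did not lie above the normal arrays. Of 11 listed genes 8 were tested, with medians of −0.69 and −0.24 in the tumors, 0 above and 2 of 8 below both normal arrays, near the 23% of all genes that lie below. Their median of −0.46 was −1.02 without normal replicate 1 and 0.06 without normal replicate 2. Fkbp11, a folding enzyme of secretory cells, read 7.84 and 9.44 in tumors and 10.25 and 10.80 in normal colon, and Mzb1, a chaperone for antibody assembly, read 9.57 and 11.24 in tumors and 10.12 and 12.02 in normal colon. Of 32 T cell genes 15 were tested, 4 lay above both normal arrays, near the 22.7% of all genes that do, and 0 lay below. On tumor replicate 1, 1 of the 15 was at least 2-fold above the normal mean (7.09% of all genes), and on tumor replicate 2, 6 were (2.57%). In limma's test 3 had an unadjusted p under 0.05 in the higher direction (5.06% of all genes) and 0 in the lower, and none passed after adjustment. The tumor medians were 0.19 and 0.76, and their median of 0.48 was −0.07 without normal replicate 1. Gpr83, a receptor found on regulatory T cells, had the largest rise of the list on each tumor. It read 8.56 and 8.85 in tumors and 6.58 and 5.57 in normal colon (at least 3.62-fold higher, adjusted p = 0.100). It was above background on the wild-type tumors alone, and the filter kept it because it is high there. Cd3d, a chain of the T cell receptor complex, read 7.22 and 8.45 in tumors and 6.68 and 8.37 in normal colon. Il7r, the interleukin 7 receptor, read 7.47 and 7.48 in tumors and 5.98 and 6.98 in normal colon. The groups overlapped for Cd3d and did not for Gpr83 and Il7r.

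**Figure D3:**
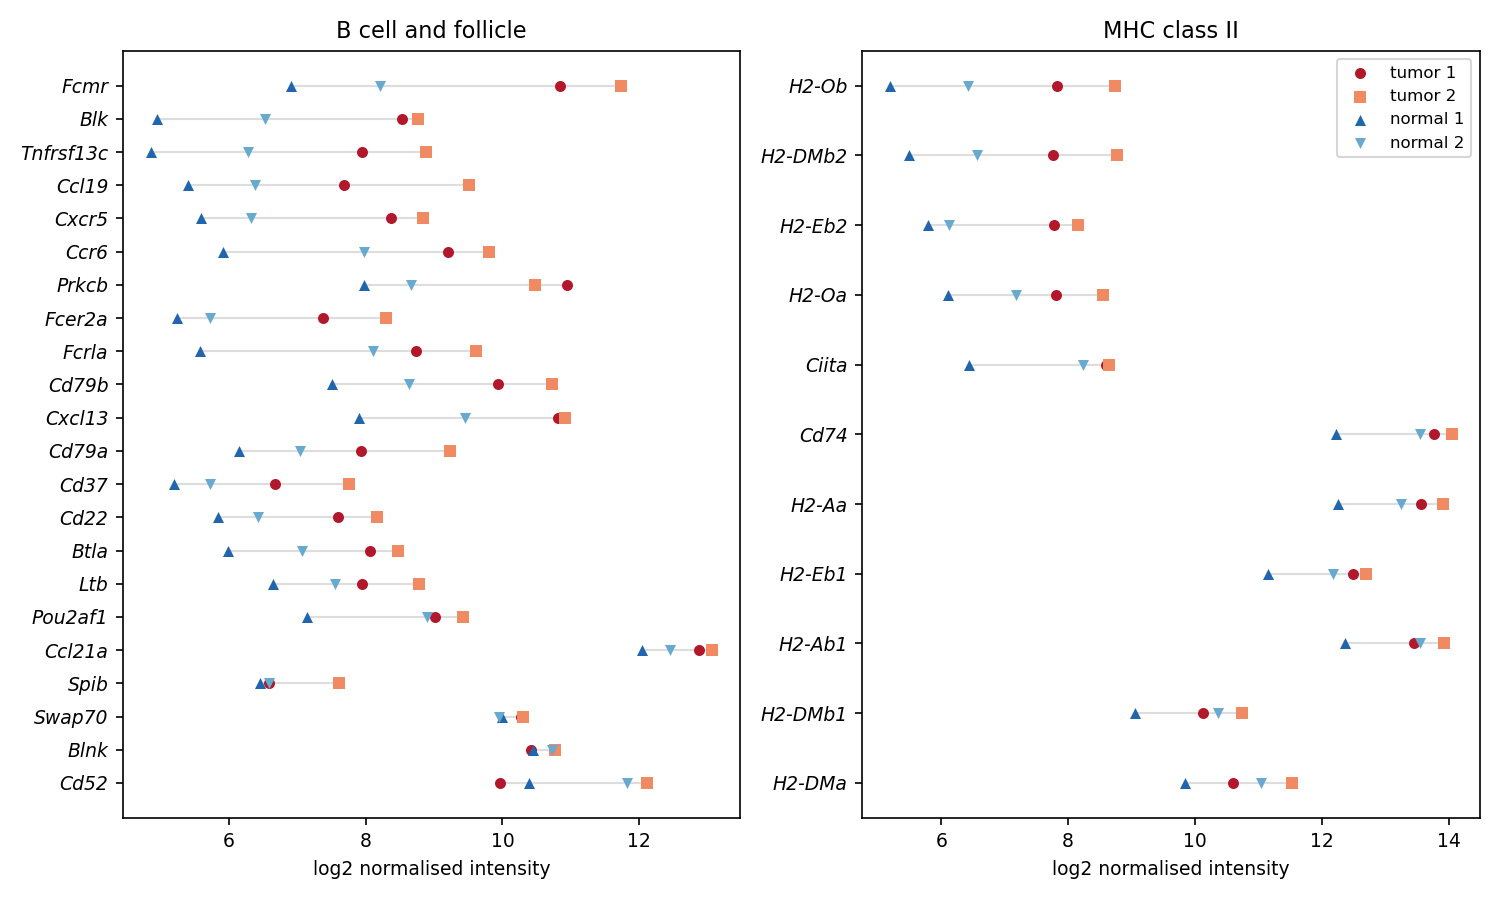
Log2 normalised intensity of the tested B cell and follicle genes (left; Ciita, in both lists, is drawn at right) and of the 11 MHC class II genes (right) on the 4 wild-type arrays, with 1 point an array; red and orange are tumors, dark and light blue normal colon. In most rows both tumors lie to the right of both normal arrays and normal replicate 1 is lowest; levels are not comparable between rows.

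MHC class II genes, which encode the molecules that present antigen to helper T cells and the proteins that load them, were higher as well. All 11 listed genes were tested. Of these, 8 lay above both normal arrays on both tumors (22.7% of all genes) and 0 below, and 7 had an unadjusted p under 0.05 in the higher direction (5.06% of all genes), with none past the adjusted threshold. Medians were 0.88 and 1.16 in the tumors and −1.19 for normal replicate 1 minus replicate 2. Without normal replicate 1 the median was 0.42. Of the 11 genes 3 were above background on the wild-type tumors alone, namely H2-Ob, H2-DMb2 and H2-Eb2. The filter kept these 3 because they are high there, and they are among both the 8 and the 7. The largest differences were those of H2-Ob, H2-DMb2, H2-Eb2 and H2-Oa. H2-Ob, a chain of the DO protein that restrains peptide loading, read 7.82 and 8.74 in tumors and 5.20 and 6.42 in normal colon (at least 2.70-fold higher, adjusted p = 0.219), and its partner H2-Oa read 7.80 and 8.55 in tumors and 6.11 and 7.18 in normal colon. H2-DMb2, a chain of the loading protein DM, read 7.77 and 8.77 in tumors and 5.49 and 6.56 in normal colon (at least 2.68-fold higher, adjusted p = 0.245). H2-Eb2, a beta chain of the I-E family, read 7.78 and 8.16 in tumors and 5.79 and 6.11 in normal colon (at least 2.18-fold higher). It shared the lowest adjusted p of all probes, 0.0927. The groups did not overlap for any of these 4 genes.

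The widely expressed members differed less. H2-Aa, the alpha chain of I-A, read 13.56 and 13.90 in tumors and 12.25 and 13.25 in normal colon, and the invariant chain Cd74 read 13.77 and 14.05 in tumors and 12.22 and 13.55 in normal colon. H2-Eb1 read 12.50 and 12.70 in tumors and 11.15 and 12.18 in normal colon. H2-DMa read 10.60 and 11.53 in tumors and 9.84 and 11.04 in normal colon, so that here the groups overlapped. Ciita, the coactivator on which MHC class II transcription depends, read 8.60 and 8.64 in tumors and 6.44 and 8.23 in normal colon, and it too stood lowest in normal replicate 1. The B cell list differed in the same direction on each of these arrays, and its part in the MHC class II difference was not tested.

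MHC class II promoters are known for an X box and a Y box that bind the factors recruiting Ciita. The RefSeq promoter table used here (GRCm38.p6) was matched for 8 of the 11 genes, and the 250 bases before the annotated start were searched on both strands. The Y box was searched as TGATTGG and was present in 7 of the 8 genes (87.5%), against 2375 of all 32851 promoter windows (7.23%). The core of the X box was searched as AGCAAC and was present in 4 of the 8 (50%), against 4012 windows (12.2%). A gene was counted if any of its windows matched, whereas the background counts windows, so the shares differ in unit. Only the exact letters were searched, and a gene without a match may hold a variant. Both were present in the 4 genes shown here, against 337 windows (1.03%), and the motifs do not overlap. The windows are given 5′ to 3′ on the coding strand with both motifs in capitals, because these 4 genes include 3 of the 4 members with the largest differences. They lie at chr17:34305617-34305866 for H2-Eb1, chr17:34325425-34325674 for H2-Eb2, chr17:34092129-34092378 for H2-Oa and chr17:34238655-34238904 for H2-Ob, all on the plus strand.
H2-Eb1: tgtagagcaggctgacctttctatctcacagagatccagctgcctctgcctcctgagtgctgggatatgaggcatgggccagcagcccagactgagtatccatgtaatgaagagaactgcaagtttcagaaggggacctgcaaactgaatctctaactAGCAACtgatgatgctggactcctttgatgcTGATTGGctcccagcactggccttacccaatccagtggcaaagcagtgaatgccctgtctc
H2-Eb2: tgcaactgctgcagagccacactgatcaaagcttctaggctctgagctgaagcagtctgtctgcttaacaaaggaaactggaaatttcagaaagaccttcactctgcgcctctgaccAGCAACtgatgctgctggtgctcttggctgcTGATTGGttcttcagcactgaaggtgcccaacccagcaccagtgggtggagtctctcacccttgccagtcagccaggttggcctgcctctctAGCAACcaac
H2-Oa: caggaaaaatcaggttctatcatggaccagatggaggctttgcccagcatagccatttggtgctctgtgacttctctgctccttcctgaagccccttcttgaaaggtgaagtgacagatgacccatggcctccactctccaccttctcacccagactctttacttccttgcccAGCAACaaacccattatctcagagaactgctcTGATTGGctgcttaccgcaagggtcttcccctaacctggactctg
H2-Ob: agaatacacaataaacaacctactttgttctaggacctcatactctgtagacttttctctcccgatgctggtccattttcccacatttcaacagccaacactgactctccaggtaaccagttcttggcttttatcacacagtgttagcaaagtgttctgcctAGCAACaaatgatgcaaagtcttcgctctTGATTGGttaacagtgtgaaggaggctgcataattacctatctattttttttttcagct

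In H2-Eb1 and H2-Eb2 the X core began 31 bases before the Y box, in H2-Oa 32 bases and in H2-Ob 29 bases, and H2-Eb2 held a second X core nearer its start. The match is a description of the letters in the reference sequence. In B cell and follicle genes the octamer ATGCAAAT, bound by the Oct factors of B cells, was present in 3 of 18 genes with an entry (16.7%), against 526 windows (1.6%). This too sets a count of genes, by any of their windows, against a count of windows.

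Smooth muscle and stromal genes were modestly higher on both tumors. Of 24 smooth muscle genes 19 were tested, 13 lay above both normal arrays (22.7% of all genes) and 0 below, and the medians were 0.69 and 0.79. Of the 19, 8 had an unadjusted p under 0.05 in the higher direction (5.06% of all genes). Without normal replicate 1 the median was 0.89. Myh11, the smooth muscle myosin heavy chain, read 14.13 and 13.67 in tumors and 12.64 and 12.30 in normal colon, a difference of 1.43 (SE 0.46, adjusted p = 0.508). Synm, an intermediate filament protein of muscle, read 12.15 and 12.04 in tumors and 10.85 and 10.39 in normal colon, and Des, encoding desmin, was higher by 0.90 (SE 0.25, adjusted p = 0.412). All 4 arrays held these transcripts at a high level, and the groups did not overlap.

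Among 30 fibroblast and matrix genes 24 were tested, with 15 above (22.7% of all genes) and 1 below both normal arrays and medians of 0.50 and 0.43. The small proteoglycan decorin (Dcn) read 15.34 and 14.73 in tumors and 13.74 and 13.87 in normal colon. Lumican (Lum), which organises collagen fibrils, read 12.17 and 11.11 in tumors and 9.86 and 9.71 in normal colon. Osteoglycin (Ogn), of the same proteoglycan family, read 12.92 and 12.11 in tumors and 11.25 and 11.23 in normal colon. Tumor replicate 1 was the highest array for 13 of the 24. Of 20 tested endothelial and lymphatic genes 14 lay above (22.7% of all genes) and 1 below both normal arrays, with medians of 0.54 and 0.29. Lyve1, a hyaluronan receptor of lymphatic vessels, read 11.28 and 11.25 in tumors and 10.50 and 10.05 in normal colon, and Tek, the angiopoietin receptor, read 8.73 and 8.55 in tumors and 8.01 and 7.51 in normal colon. Macrophage genes were close to even, with medians of 0.09 and 0.43 over 16 of 22 genes, and of 0.17 for the tumor mean without normal replicate 1. Mrc1, the mannose receptor of resident macrophages, read 10.30 and 10.09 in tumors and 9.39 and 9.11 in normal colon.

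Single genes outside these lists had gaps as wide. Cpxm1, a carboxypeptidase-like protein without known enzyme activity, read 8.00 and 8.72 in tumors and 5.55 and 5.93 in normal colon (at least 2.86-fold higher, adjusted p = 0.385). Il13ra2, the decoy receptor for interleukin 13, read 7.72 and 7.22 in tumors and 5.29 and 5.21 in normal colon (at least 1.54-fold higher, adjusted p = 0.561). Srpk3, a muscle protein kinase, read 8.39 and 9.0 in tumors and 6.69 and 6.49 in normal colon (at least 3.60-fold higher, adjusted p = 0.252). Itgbl1, an integrin-like secreted protein, read 7.02 and 7.39 in tumors and 5.22 and 5.04 in normal colon. Casp14, the caspase of cornifying epidermis, read 11.07 and 11.07 in tumors and 9.74 and 8.04 in normal colon, and the difference of 2.18 did not pass (SE 0.48, adjusted p = 0.302). None of these 5 genes overlapped between the groups.

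Genes of the HoxD cluster, which mark position along the body axis with the highest-numbered members most posterior, were higher in the tumors. Hoxd13 read 9.43 and 9.18 in tumors and 6.77 and 5.24 in normal colon, where it was not above background, so it was at least 5.51-fold higher (adjusted p = 0.140). Hoxd12 read 8.04 and 8.16 in tumors and 6.37 and 5.09 in normal colon (at least 2.39-fold higher, adjusted p = 0.511). Hoxd10 read 11.73 and 11.57 in tumors and 9.12 and 7.61 in normal colon, a difference of 3.28 (SE 0.50, adjusted p = 0.140). For these genes the tumor arrays lay close together. Hoxd10, which was above background on all 4 arrays, was 1.51 log2 units higher in normal replicate 1 than in normal replicate 2, and its difference without normal replicate 1 was 4.04.

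The other HoxD genes differed by less. Hoxd9 read 7.64 and 7.32 in tumors and 6.39 and 6.02 in normal colon, and Hoxd8 read 8.57 and 7.16 in tumors and 6.06 and 5.59 in normal colon. Hoxd4 was above background on none of the 4 arrays. Genes of the other Hox clusters had smaller gaps or ran the other way. Hoxa13 read 9.17 and 8.59 in tumors and 8.98 and 8.76 in normal colon, Hoxa11 read 6.53 and 6.16 in tumors and 6.04 and 5.90 in normal colon, and Hoxc10 read 6.39 and 6.09 in tumors and 6.76 and 6.45 in normal colon. Hoxa7 was lower, at 10.43 and 11.04 in tumors and 11.70 and 11.69 in normal colon, and Hoxb7 read 7.45 and 6.56 in tumors and 6.43 and 6.12 in normal colon. Of the other tested Hox genes, Hoxb6 and Hoxc6 were above background on none of the 4 arrays, Hoxb2 was above background on the tumors alone at 6.80 and 6.96 in tumors and 6.70 and 6.77 in normal colon, and Hoxa2, Hoxa5, Hoxa9, Hoxb4, Hoxb5 and Hoxb9 had differences between −0.42 and 0.24. The homeobox gene Evx1, a neighbour of the HoxA cluster, ran the other way at 7.59 and 7.09 in tumors and 9.46 and 9.07 in normal colon.

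Among ion transport genes, Scnn1g, the gamma subunit of the epithelial sodium channel, read 10.45 and 10.44 in tumors and 8.64 and 8.56 in normal colon, a difference of 1.84 (SE 0.21, adjusted p = 0.0927) with the replicates 0.01 apart in tumors and 0.07 apart in normal colon. Scnn1b, the beta subunit, read 9.29 and 9.69 in tumors and 8.63 and 8.48 in normal colon. Atp12a, the potassium pump of the distal colon, read 14.31 and 14.21 in tumors and 13.69 and 12.97 in normal colon. Scnn1b and Atp12a were chosen after their values were seen, and none of the 3 passed (adjusted p = 0.559 for Scnn1b and 0.507 for Atp12a). The position of each sample along the colon was not recorded in the labels, and its part in these differences was not tested.

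**Figure D4:**
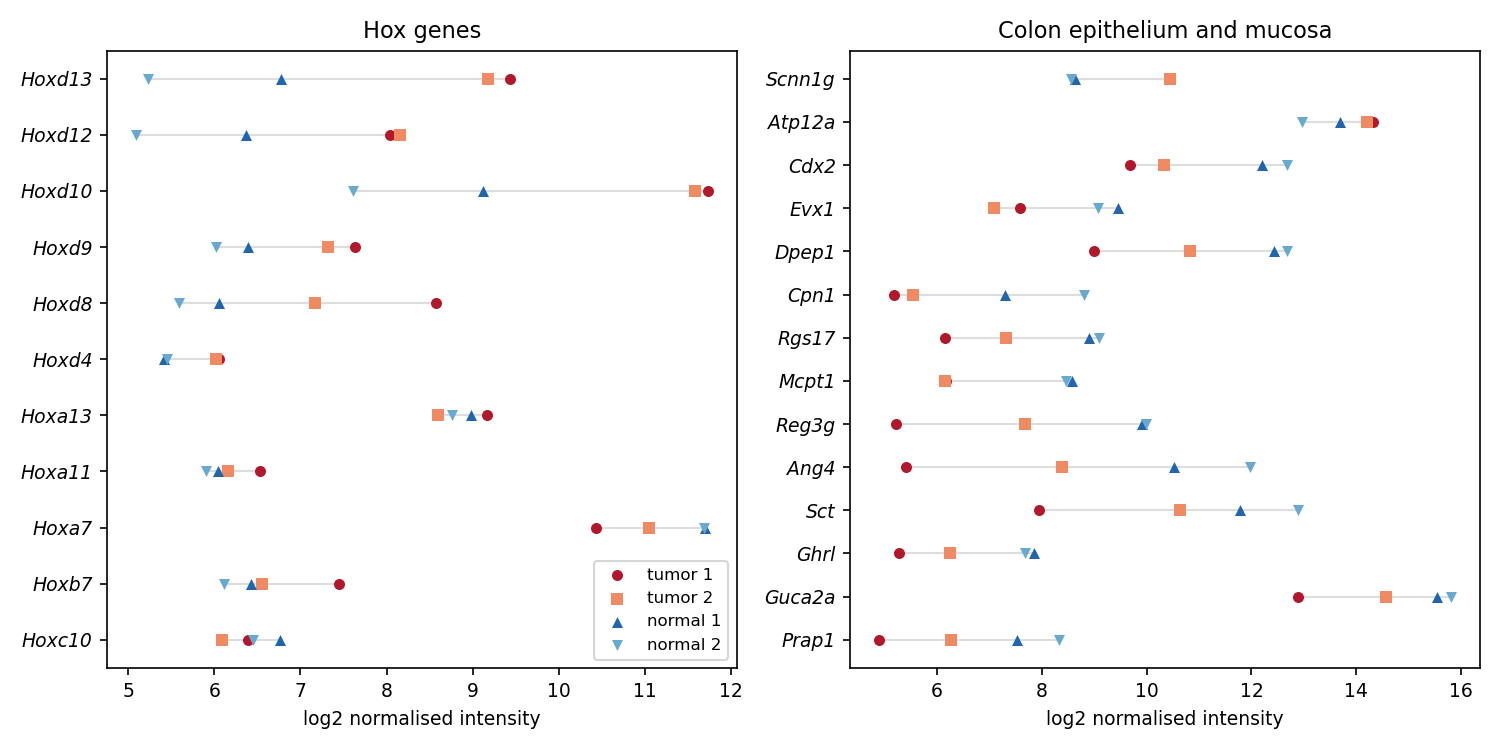
Log2 normalised intensity of Hox genes (left) and of genes of colon epithelium and mucosa (right) on the 4 wild-type arrays, with 1 point an array and the colours of the lymphoid plot. Hoxd13, Hoxd12 and Hoxd10 are high on both tumors and the sodium channel subunit Scnn1g likewise, while Cdx2, Evx1, Dpep1 and the secretory genes are lower on both tumors, with tumor replicate 1 lowest for most of them.

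The caudal-type homeobox factor Cdx2, which specifies intestinal epithelium, was lower in the tumors at 9.69 and 10.32, against 12.21 and 12.69 in normal colon, a difference of −2.44 (SE 0.58, adjusted p = 0.349). It was the single marker of the epithelial list at least 2-fold lower on both tumors. The list as a whole had medians of −0.02 and −0.22. Of its 14 tested genes, 5 lay below and 0 above both normal arrays (23% and 22.7% of all genes). Krt20, a keratin of mature surface cells, read 13.93 and 14.12 in tumors and 13.93 and 14.92 in normal colon, and Krt18 read 12.62 and 12.59 in tumors and 13.05 and 12.91 in normal colon.

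Hormone and mucus genes of the secretory lineages were lower, more so on tumor replicate 1. Of 22 enteroendocrine genes 15 were tested, of which 12 lay below both normal arrays (background 23%) and 1 above. Of the 15, 5 had an unadjusted p under 0.05 in the lower direction (background 3.7%), and the medians were −1.42 and −0.75. Sct, encoding secretin, read 7.95 and 10.63 in tumors and 11.78 and 12.89 in normal colon. Insl5, an insulin-like hormone of distal colon L cells, read 9.07 and 11.41 in tumors and 12.82 and 12.54 in normal colon. Gcg, the precursor of glucagon-like peptides, read 9.64 and 10.63 in tumors and 11.58 and 12.14 in normal colon. Each was lower on both tumors and lowest on replicate 1. Ghrl, encoding ghrelin, was not above background in tumors at 5.28 and 6.25, against 7.86 and 7.69 in normal colon (at least 2.35-fold lower, adjusted p = 0.156). It was above background on the wild-type normal arrays alone, and the filter kept it because it is high there. Pyy, Sst and Ppy, which encode peptide YY, somatostatin and pancreatic polypeptide, were lower by 1.35, 1.82 and 2.88 in log2 units on the mean of the tumors (adjusted p between 0.508 and 0.568).

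Among 16 goblet cell genes 13 were tested, with 9 below and 0 above both normal arrays (23% and 22.7% of all genes). The medians were −1.09 and −0.41. Spink4, a protease inhibitor of goblet granules, read 13.24 and 14.69 in tumors and 14.91 and 15.30 in normal colon. Tff3, the trefoil factor secreted with mucus, read 13.37 and 14.83 in tumors and 14.82 and 15.13 in normal colon, so that tumor replicate 2 overlapped the normal range. Ang4, an antimicrobial ribonuclease of secretory cells, read 5.41 and 8.38 in tumors and 10.52 and 11.97 in normal colon, a difference of −4.34 (SE 0.98, adjusted p = 0.308). The antimicrobial lectins Reg3g and Reg3b followed it: Reg3g read 5.22 and 7.68 in tumors and 9.92 and 9.99 in normal colon, and Reg3b read 5.75 and 9.73 in tumors and 10.31 and 12.28 in normal colon. Retnlb, the goblet cell resistin-like protein, differed most between the normal arrays, with 8.09 and 9.45 in tumors and 8.58 and 11.90 in normal colon. The Paneth and antimicrobial list, which holds Ang4 and the Reg3 genes, had 10 of 17 genes tested. Of these, 5 lay below and 1 above both normal arrays (23% and 22.7% of all genes). The list median was −1.44, which was −0.34 without normal replicate 1. Reg and Ang genes have near-identical copies, and a probe may bind several of them.

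Absorptive colonocyte genes were split. Of 30 genes 26 were tested, and 8 lay below and 4 above both normal arrays (23% and 22.7% of all genes). The medians were −0.70 and −0.01. Guca2a and Guca2b, encoding guanylin and uroguanylin, were lower: Guca2a read 12.88 and 14.57 in tumors and 15.53 and 15.81 in normal colon, and Guca2b read 8.49 and 9.91 in tumors and 10.96 and 10.72 in normal colon. Prap1, a protein of mature enterocytes, was not above background in tumors at 4.89 and 6.26, against 7.52 and 8.32 in normal colon (at least 2.60-fold lower, adjusted p = 0.258), and Tmigd1, an epithelial adhesion protein, was at least 2.88-fold lower (adjusted p = 0.418). Slc51a and Slc51b, the subunits of the basolateral bile acid transporter, had values of 5.41 and 6.86 in tumors and 7.70 and 7.55 in normal colon for the first, and of 7.90 and 9.79 in tumors and 9.71 and 11.29 in normal colon for the second. Of these 6 genes, only Slc51b overlapped between the groups. Scnn1g, described above among ion transport genes, is also a member of this list and was higher on both tumors.

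Other genes were lower on both tumors by wide gaps. Mcpt1, a protease of mucosal mast cells, was not above background in tumors at 6.17 and 6.15, against 8.58 and 8.47 in normal colon (at least 3.95-fold lower, adjusted p = 0.290). Cma1, the chymase of connective tissue mast cells, ran the other way at 7.59 and 8.03 in tumors and 7.06 and 5.39 in normal colon. Btn1a1, a butyrophilin, was not above background in tumors at 5.31 and 5.17, against 7.23 and 7.59 in normal colon (at least 1.82-fold lower). It was 1 of the 3 named genes with the lowest adjusted p of 0.0927. Btn1a1 was above background on the wild-type normal arrays alone, and the filter kept it because it is high there. Dpep1, a brush border dipeptidase, read 9.0 and 10.83 in tumors and 12.43 and 12.68 in normal colon. Cpn1, a carboxypeptidase subunit, read 5.18 and 5.55 in tumors and 7.29 and 8.81 in normal colon (at least 2.84-fold lower, adjusted p = 0.290). Rgs17, a regulator of G protein signalling, read 6.16 and 7.31 in tumors and 8.90 and 9.09 in normal colon. Upk1b, a uroplakin, was at least 2.38-fold lower (adjusted p = 0.386), and Proc, encoding protein C, at least 1.80-fold lower (adjusted p = 0.127).

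Transcripts of 2 tissues other than colon mucosa were high on tumor replicate 1 and near the normal arrays on tumor replicate 2. Of 56 stratified squamous epithelium genes 44 were tested, and 36 of these were at least 2-fold above the normal mean on tumor replicate 1 (background 7.09%), against 1 on tumor replicate 2 (background 2.57%). The medians were 2.79 and −0.08. Tumor replicate 1 was the highest of the 4 arrays for 39 of the 44, and the mean level of the list was 9.80 and 6.65 in tumors and 7.03 and 6.64 in normal colon. Trp63, the transcription factor of basal squamous cells, read 11.77 and 4.84 in tumors and 5.34 and 4.90 in normal colon. Krt5, a basal keratin, read 12.09 and 5.53 in tumors and 6.74 and 5.26 in normal colon. Its partner Krt14 read 15.91 and 9.38 in tumors and 10.79 and 8.35 in normal colon. Tumor replicate 2 lay near the normal arrays for each, and normal replicate 1 was above normal replicate 2. Trp63 and Krt5, like Col17a1, Krt6b and Lypd3 below, were above background only on tumor replicate 1 and both tumors labelled deficient. The filter kept them because they are high there, so the 7.09% is not a like background. Over the 50 genes of the list with a probe the median of the tumor mean was 1.23.

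Other squamous genes were high on the same array. Col17a1, a collagen of the hemidesmosomes that anchor squamous epithelium, read 12.75 and 5.09 in tumors and 5.85 and 5.31 in normal colon. Krt13, a keratin of internal squamous linings such as oesophagus and anal canal, read 13.54 and 4.98 in tumors and 7.85 and 5.38 in normal colon, and Krt6b read 12.39 and 4.91 in tumors and 5.84 and 5.21 in normal colon. Sprr2d, a cornified envelope protein, read 13.79 and 5.05 in tumors and 9.33 and 5.20 in normal colon. The surface protein Lypd3 read 11.75 and 5.19 in tumors and 6.32 and 6.56 in normal colon, and Psca, another surface protein, read 13.85 and 6.36 in tumors and 9.57 and 6.42 in normal colon. None of these genes passed between the groups, and the sign of the group difference of each of the 6 turned without tumor replicate 1.

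Genes outside the squamous list were high on tumor replicate 1 as well. Ppbp, a platelet chemokine, differed most between the tumor arrays, with 13.97 and 5.03 in tumors and 8.14 and 4.89 in normal colon. Arg1, encoding arginase, read 14.07 and 6.32 in tumors and 9.64 and 8.52 in normal colon, so that tumor replicate 2 lay below both normal arrays, and Ltf, the lactoferrin of neutrophil granules and glands, read 15.14 and 8.08 in tumors and 11.84 and 8.37 in normal colon. Calcb, a calcitonin gene-related peptide, read 12.31 and 5.17 in tumors and 6.02 and 5.62 in normal colon. In all, 111 genes (1.19%) were at least 4-fold higher in tumor replicate 1 than in tumor replicate 2, and 72 of these (64.9%) were also at least 4-fold higher in both tumors than in both normal arrays labelled deficient (2.57% of all genes). Those 72 were 30% of the 240 genes with that pattern. A gene that tumor replicate 1 alone of the wild-type arrays detected was likewise tested only if an array labelled deficient detected it. The filter therefore sets the 64.9% in part, and the 2.57% is not a like background. In the opposite direction, 48 genes (0.514%) were at least 4-fold lower in tumor replicate 1 than in tumor replicate 2. For 18 of the 111 (16.2%), normal replicate 1 was at least 2-fold above normal replicate 2.

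Skeletal muscle genes formed the other such group. Of 27 listed genes 18 were tested, with medians of 2.12 and 0.32. Of the 18, 12 were at least 2-fold above the normal mean on tumor replicate 1 (7.09% of all genes) and 1 on tumor replicate 2 (2.57%). Over the 26 genes with a probe the median of the tumor mean was 0.32. Over the members detected on every array it was −0.14. Myh8, a perinatal myosin heavy chain, read 11.57 and 5.60 in tumors and 5.18 and 5.52 in normal colon. Atp2a1, the calcium pump of fast fibres, read 9.56 and 6.25 in tumors and 5.67 and 5.62 in normal colon, and Tnnc2, fast troponin C, read 9.0 and 5.28 in tumors and 5.05 and 4.83 in normal colon. The muscle oxygen carrier myoglobin (Mb) read 9.05 and 5.44 in tumors and 5.27 and 5.38 in normal colon. Each of these 4 genes was above background only on tumor replicate 1 and 1 tumor array labelled deficient. The filter kept them because they are high there. Acta1, skeletal actin, was above background on all 4 arrays, with 11.11 and 8.77 in tumors and 8.83 and 8.66 in normal colon. The smooth muscle list by contrast had similar medians on both tumors.

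**Figure D5:**
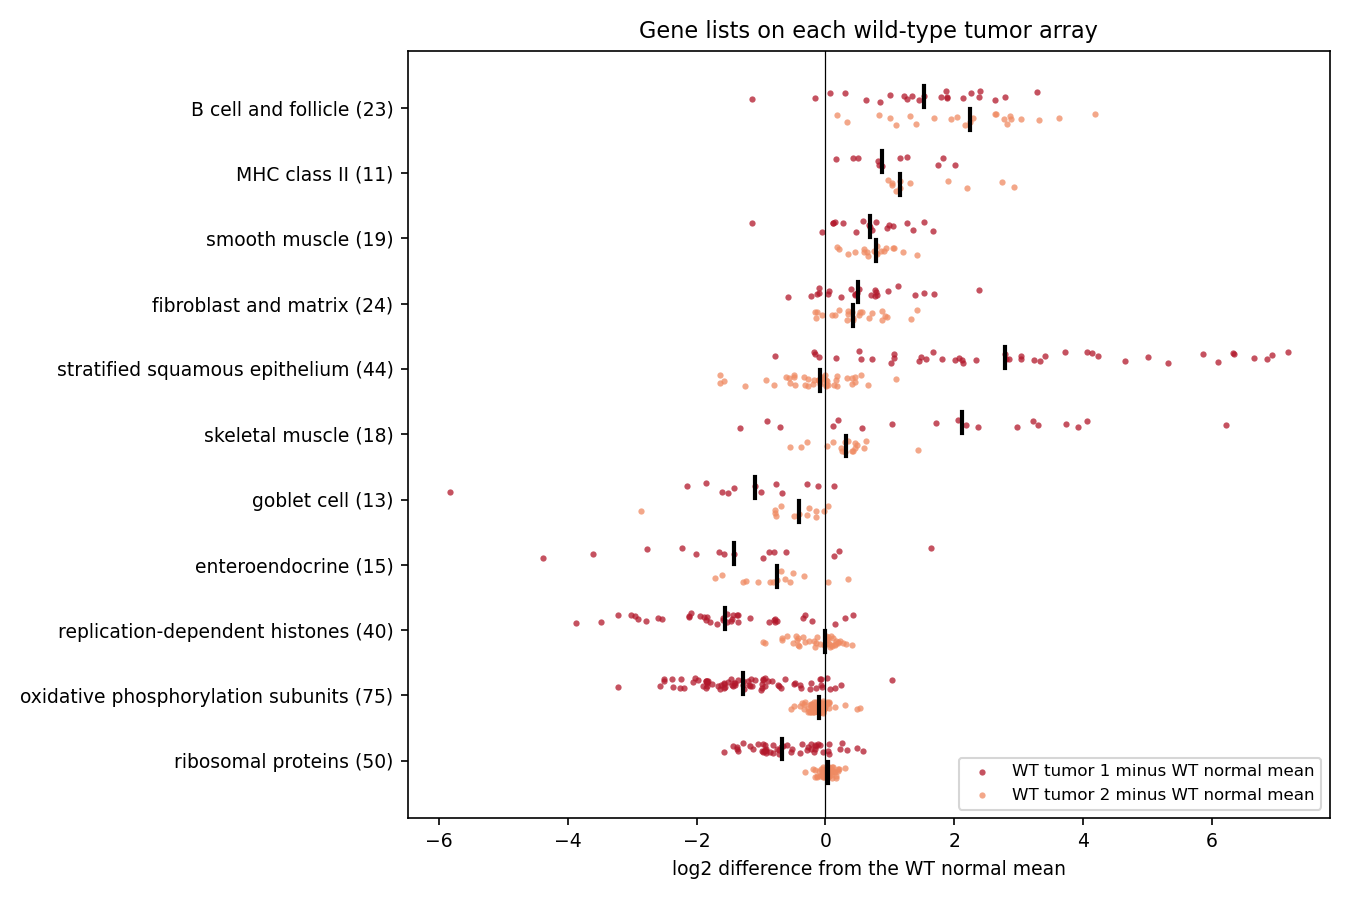
Log2 difference from the mean of the 2 wild-type normal arrays for every tested gene of 11 lists, with tumor replicate 1 (red) above tumor replicate 2 (orange) in each row, 1 point a gene and a black bar at the median. The medians of B cell, MHC class II, smooth muscle and fibroblast genes lie right of 0 on both arrays and those of squamous genes on replicate 1 alone, while histone, oxidative phosphorylation and ribosomal protein genes have medians left of 0 on replicate 1 and near 0 on replicate 2.

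Tumor replicate 1 was also low in 3 groups of abundant housekeeping transcripts, drawn up after their values were seen. Of 40 replication-dependent histone genes, whose messages lack a poly(A) tail, 29 were at least 2-fold below the normal mean on tumor replicate 1 (background 7.55%) and 0 on tumor replicate 2 (background 1.5%), with medians of −1.56 and −0.01. H2ac11 read 5.87 and 9.16 in tumors and 9.36 and 10.14 in normal colon, and H2ac21 read 6.54 and 9.36 in tumors and 9.70 and 10.35 in normal colon. H2ac12 and H4c18 were lower on tumor replicate 1 than on replicate 2 by similar amounts, at 8.97 against 11.75 and 6.18 against 8.89. These genes are near-identical copies, and their probes may not tell them apart.

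Oxidative phosphorylation subunits are the proteins of the mitochondrial respiratory chain and ATP synthase. Of 75 such genes, 46 were at least 2-fold lower on tumor replicate 1 (7.55% of all genes) and 0 on replicate 2 (1.5%). The medians were −1.27 and −0.11. Cox7a1, a cytochrome oxidase subunit of muscle, read 9.16 and 12.35 in tumors and 12.68 and 12.07 in normal colon. Of 50 ribosomal protein genes 9 were at least 2-fold lower on tumor replicate 1 (7.55% of all genes) and 0 on replicate 2 (1.5%). The medians were −0.67 and 0.04. Hba-a1, alpha globin of red cells, read 7.92 and 11.36 in tumors and 11.39 and 10.56 in normal colon. Tumor replicate 1 was the array with the raised squamous and skeletal muscle lists, and the part of tissue content or RNA quality in these low values was not tested. Retnla, a resistin-like protein of alternatively activated macrophages, was higher on tumor replicate 2, with 6.00 and 8.82 in tumors and 7.26 and 5.53 in normal colon. Igfbp2, an insulin-like growth factor binding protein, read 7.14 and 9.79 in tumors and 9.11 and 9.35 in normal colon.

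Other programmes often followed in tumors had medians closer to 0. Of 28 cell cycle genes 21 were tested, with medians of −0.25 and −0.19. Of the 21, 6 lay below and 0 above both normal arrays (23% and 22.7% of all genes). On either tumor 0 were at least 2-fold away (14.6% and 4.07% of all genes). Their median of −0.24 was −0.50 without normal replicate 1. Of 38 cytokine and chemokine genes 32 were tested, with medians of −0.20 and −0.15, and of −0.04 for the tumor mean without normal replicate 1. Il1b, encoding interleukin 1 beta, read 10.11 and 7.51 in tumors and 8.81 and 8.86 in normal colon, and Cxcl5, a neutrophil chemokine, read 11.85 and 8.00 in tumors and 9.63 and 8.31 in normal colon, so that replicate 1 was high and replicate 2 was not. Il11, a cytokine of stromal cells, was lower on both, at 6.28 and 6.11 in tumors and 7.50 and 7.10 in normal colon (at least 1.69-fold lower, adjusted p = 0.389).

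Of 21 neutrophil genes 11 were tested, with medians of −0.13 and −0.99. Of the 11, 1 lay above and 2 below both normal arrays (22.7% and 23% of all genes). On tumor replicate 1, 4 were at least 2-fold above the normal mean and 1 below (7.09% and 7.55% of all genes). On tumor replicate 2 these counts were 0 and 5 (2.57% and 1.5%). Ltf, described above, had the largest rise of the list on tumor replicate 1, at 5.04. S100a8, which forms calprotectin with S100a9, read 10.71 and 9.50 in tumors and 11.70 and 11.85 in normal colon, a difference of −1.67 (SE 0.47, adjusted p = 0.422). S100a9 read 9.80 and 7.42 in tumors and 10.15 and 9.72 in normal colon, and Lcn2, the iron-scavenging lipocalin of inflamed mucosa, read 8.22 and 7.88 in tumors and 10.27 and 8.79 in normal colon. For S100a8 and Lcn2 both tumors lay below both normal arrays, while for S100a9 tumor replicate 1 lay between the normal arrays. Immediate early genes had medians of 0.38 and 0.12 over 14 genes, led by the transcription factor Fosb at 9.65 and 8.17 in tumors and 6.98 and 7.03 in normal colon and by Egr1 at 12.71 and 12.07 in tumors and 11.29 and 11.04 in normal colon. Matrix proteases and their inhibitors had medians of 0.00 and −0.39 over 15 genes, and of −0.05 for the tumor mean without normal replicate 1.

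The wild-type tumor difference was set against that of the arrays labelled deficient by the tissue by genotype term of the same limma model, for which 521 of 13327 probes passed (3.91%), 315 (2.36%) above 0 and 206 (1.55%) below. A value above 0 means that the wild-type tumor minus normal difference was the larger. Of the follicle genes, Fcmr gave a fitted term of 0.11 (adjusted p = 0.945) and Cxcr5 one of 1.97 (adjusted p = 0.0693), and neither passed. H2-Eb2 and Gpr83 passed (adjusted p = 0.0334 for each), but both were above background on the wild-type tumors alone, so that their terms of 1.80 and 2.60 are fitted values and not measured differences. Without normal replicate 1 the adjusted p was 0.124 for H2-Eb2 and 0.0297 for Gpr83. The term of Hoxd13 did not pass (adjusted p = 0.746), and that of Hoxd10 missed the threshold (3.00, adjusted p = 0.0611). Of the 11 tested neutrophil genes 6 passed below 0, where 1.55% of all probes did, and 0 passed above. The filter keeps a gene detected only on the tumors labelled deficient because it is high there. The 1.55% also counts probes and not genes, so it is not a like background. Other lists had passing members too. Of 32 cytokine and chemokine genes 11 passed below 0 and 0 above. Of 26 absorptive colonocyte genes 11 passed above 0 and 1 below, and of 20 xenobiotic metabolism genes 8 above and 0 below. S100a8, which was above background on all 8 arrays, differed by −1.67 on the wild-type arrays and by 7.12 on the arrays labelled deficient (term −8.79, SE 0.66, adjusted p = 0.00446), and without normal replicate 1 its term was −8.86 (adjusted p = 0.0245). The count of probes that passed depended strongly on single arrays, between 23 and 1141 when each of the 8 arrays was left out.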

How the data were processed

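Total RNA of 8 colon samples was measured on Illumina MouseRef-8 v2 arrays, 2 for each of 4 groups taken from the sample titles. Per the file headers the deposited scanner table gives, for each array and probe, an average intensity that is not normalized and a detection p-value. The deposited log2 values equalled that intensity divided by its array's mean, in log2 (largest difference 1.71e-05), and were used only as an alternative. BeadStudio 3.2.7 was used, per the submitters' processing notes. All columns were used.

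Intensities were background-corrected and quantile-normalised with neqc in limma 3.58.1 (R 4.3.3), with an offset of 16 and the background inferred from the detection p-values, which move in steps of 1 in 798. Of 25697 probes 23978 had 1 gene symbol, 0 had several and 1719 had none. Probes detected (p under 0.01) by 2 or more of the 8 arrays were tested in 1 limma model of 4 group means (4 residual and 3.55 prior degrees of freedom, two-sided, Benjamini-Hochberg threshold 0.05), which was also tested on simulated data. The tested probe with the highest mean stood for its gene. The arrays' number, 2 a group, limits the precision. Where a probe was not above background on either array of a group, the fold is a lower bound against the dimmest signal measured above background, or the probe's own signal where that was higher.

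The genes and the 43 gene lists were chosen with earlier results of these data known, and 4 further lists (histones, oxidative phosphorylation, ribosomal proteins and alpha-defensins) after their values were seen. Genes were named by a rule: Casp12, the 12 largest gaps between the groups in each direction, the 12 largest differences between the tumor arrays in each direction, all tested Hox genes, and in each list described up to 4 members by each of the 2 differences. Acta1, Atp12a, Cd74, Cd79b, Ciita, Des, Guca2b, H2-Aa, H2-Eb1, Krt14, Lcn2, Scnn1b and Defa20 fall outside it and were chosen after their values were seen. The alternatives were other background corrections, offsets, normalisations and filters, array weights, an intensity trend in the variance, the wild-type arrays alone, the replicate number as a block, and leaving out each array.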

Additional observations from a re-analysis of the deposited data

Results flagged for a closer look

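For 22 of the genes named above, the tumor minus normal difference in wild-type mice differed from that on the arrays labelled caspase-12 deficient by the tissue by genotype term of the limma model (wild-type minus deficient, adjusted p under 0.05; 3.91% of all probes passed). Many of the named genes were chosen for large differences on the wild-type arrays that enter this term. The 3.91% also counts probes and not genes, so it is not a like background for the 22. The Casp12 probe did not bear out these labels. In 11 genes the term was above 0 and in 11 below. For 15 of the 22 at least 1 of the 4 groups was not above background, and there the term is a fitted value and not a measured difference.

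Among the 7 genes measured in every group, Des had a term of 1.81 (0.90 in wild-type mice, −0.91 on the arrays labelled deficient) and Ogn one of 3.66 (1.28 in wild-type mice, −2.38 on the arrays labelled deficient). Atp12a had a term of −2.60 (0.93 in wild-type mice, 3.54 on the arrays labelled deficient). The inflammatory genes S100a8, S100a9, Lcn2 and Il1b had terms of −8.79, −8.73, −5.51 and −5.85, with differences of −1.67, −1.32, −1.48 and −0.03 in wild-type mice and 7.12, 7.41, 4.03 and 5.83 on the arrays labelled deficient. Among the genes with a group not above background, fitted terms above 0 were 1.80 for H2-Eb2, 2.60 for Gpr83, 5.60 for Slc51a, 4.70 for Prap1, and 1.79, 3.70, 4.17, 1.63 and 4.36 for Hoxd9, Hoxd4, Hoxb7, Hoxb2 and Hoxb6. Fitted terms below 0 were −7.52 for Evx1, −7.50 for Itln1, −5.12 for Il11, −4.14 for Lgr5, −3.85 for Mcpt1 and −2.02 for Btn1a1.

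Normal replicate 1 was the highest of the 4 wild-type arrays for 8 of the 22 genes, namely Evx1, Mcpt1, Slc51a, Lgr5, Itln1, S100a9, Lcn2 and Il11. Without it all 22 terms had the same sign, and 7 still passed, namely Gpr83, Evx1, Slc51a, S100a8, S100a9, Il11 and Hoxb6.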

How the results depend on the processing

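No probe passed between wild-type tumor and normal colon under any alternative but the omission of tumor replicate 2, which gave 105 (35 higher, 70 lower), a range of 0 to 105 over the omissions. Tumor replicate 2 lay beyond both normal arrays in the same direction for 18 of the 35 and 64 of the 70, and with 1 tumor array left the fit assumes that it varies like the other groups. Probes with an unadjusted p under 0.05 numbered 1154, and 486 without tumor replicate 1, 2753 without tumor replicate 2, 678 and 673 without normal replicate 1 and 2, and 2086 with no filter. The tissue by genotype count of 521 was 297 with no filter and 329 for probes detected on all 8 arrays, and 23 to 1141 over the omissions: 100 and 115 without wild-type normal replicate 1 and 2, 338 and 125 without wild-type tumor replicate 1 and 2, 49 and 23 without labelled-deficient normal replicate 1 and 2, and 1141 without labelled-deficient tumor replicate 2. The share of probes at least 2-fold from normal, 14.3% for tumor replicate 1, was 7.63% with no background correction, 9.48% with the deposited values and 7.93% with no filter. For tumor replicate 2, at 3.72%, it was 1.63%, 1.64% and 2.12% under these, and 1.78% for probes detected on all 8 arrays. The cause of these changes was not tested. Over all probes the difference had a median of −0.13 when arrays were scaled to 1 median and 0.12 in the deposited values. With the replicate number as a block 0 probes passed (lowest adjusted p 0.135), 1364 had an unadjusted p under 0.05 and the tissue by genotype count was 498; same-numbered tumor and normal arrays deviated together at a correlation of 0.08, so the numbers were not taken as pairs. For 91 genes whose groups did not overlap 3 of 1671 values turned in sign, Hoxb6 to −0.092 with median scaling and −0.024 with cyclic loess and Hoxb5 to 0.14 with the deposited values, while the omissions cannot turn it by how these genes were selected, and 12 passed, all without tumor replicate 2. Of 48 genes whose groups overlapped, 38 changed sign under at least 1 alternative, 22 of the 57 sign changes being without tumor replicate 1, and Trp63, Col17a1, Lypd3 and Cox7a1 passed without tumor replicate 2. List medians ranged from 0.52 to 2.43 for B cell, 0.42 to 1.69 for MHC class II, −0.07 to 1.14 for T cell, 0.50 to 0.89 for smooth muscle, −0.14 to 2.12 for skeletal muscle, −0.08 to 2.79 for squamous, −1.42 to −0.57 for enteroendocrine, −1.17 to −0.41 for goblet, −2.39 to 0.41 for Paneth, −0.79 to 0.12 for Wnt, −0.50 to 0.08 for cell cycle, −0.20 to 0.06 for cytokine, −1.25 to 0.06 for neutrophil and −1.02 to 0.06 for plasma cell genes.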
